A study of Rattus norvegicus with 6 samples.

Results

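The genes of the actin and microtubule cytoskeleton were examined in 3 rat esophageal tumor cell lines. They were taken by a rule on gene symbols: 59 of the 3158 genes named on the array have symbols that begin with the letters of kinesins, tubulins, dynein, dynactin, stathmins, microtubule-associated proteins, actins, actinins, the Arp2/3 complex, cofilins, capping proteins, tropomodulins, tropomyosins, myosins, talin, vinculin, filamins, WASP-family proteins, profilins or the Dpysl family. Cflar, an inhibitor of death-receptor signaling, was taken only because its symbol begins like that of a cofilin. It was counted among the 59 genes and placed in no class, and stood at -0.67 ± 0.39 (SD over 3 lines, adjusted p = 0.0279). That call was lost without line JA (0.148), without line Amy (0.131) and without the JB Cy3 array (0.0505), within a range of 0.00511 to 0.168 over its alternatives. No vinculin or filamin gene was among the genes named here, and Actb was the only actin. The 59 genes were measured by 93 clones in 186 spots, 39 genes by 1 clone and 20 by several.

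The lines JA, JB and Amy are esophageal tumor lines whose tumors reflux had induced. Total RNA of each was hybridized against a 1:1 mixture of RNA from the cell lines Normal1_esophageal and Normal2_esophageal on 2 arrays with Cy3 and Cy5 exchanged. All 6 arrays therefore share that pool, and the labels give no strain, age, treatment or passage for any line. Nothing in the labels says that the 2 arrays of a line came from separate cultures. A value is the log2 ratio of tumor line to pool, a direction that is likely from the order of names in the titles but not settled. With the ratio turned, every sign and rank reverses: 20 genes would be higher and 17 lower, with Kifbp the highest and Arpc1b the lowest of the 59. An array is named by the line and the dye it carried (JB Cy5), and the Cy3 array of a line is given before its Cy5 array.

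Actin filaments grow from profilin-bound monomers, branch through the Arp2/3 complex and are taken apart by cofilin, and myosins pull on them. Microtubules are polymers of alpha- and beta-tubulin that start from gamma-tubulin, and are loosened by stathmin. Kinesins and dynein carry cargo along them in opposite directions. In epithelia the actin network supports cell junctions and migration, and microtubules also form the mitotic spindle.

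The 3 lines, each the mean of its 2 arrays, were tested as replicates against a ratio of 0 (limma, adjusted p under 0.05 over all 7180 features). The pool enters as 1 control sample without a spread of its own, so p-values cover only the spread between lines. That spread was moderated toward the variances of all features, and the printed SD is the unmoderated one. Kif5a, with an SD of 0.03, was tested with a standard error of 0.11. The number of lines limits the precision. Across all features 53.5% passed, 20.7% higher and 32.8% lower, so a call by itself is common in these data. Of the 59 cytoskeleton genes 37 passed, 17 higher and 20 lower (28.8% and 33.9%), and their median was 0.08, against -0.12 over all features. Centring every array moved the median of all features to -0.0054, and the split of the 59 genes became 22 higher and 17 lower. The counts over all 7180 features shifted as well, from 1487 higher and 2356 lower to 1824 and 2009. All 6 arrays had 1 sign for 38 of the 59 genes (64.4%), against 55.9% of all features. Of the 37 calls, 16 were kept when each line and each array was left out in turn. Without line JA the counts were 6 higher and 11 lower, and without line Amy 9 higher and 13 lower. The shares of all features that kept their calls in these leave-outs are not given. In bulk RNA, fewer cells that express a gene and less of its RNA per cell cannot be told apart.

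**Figure D1:**
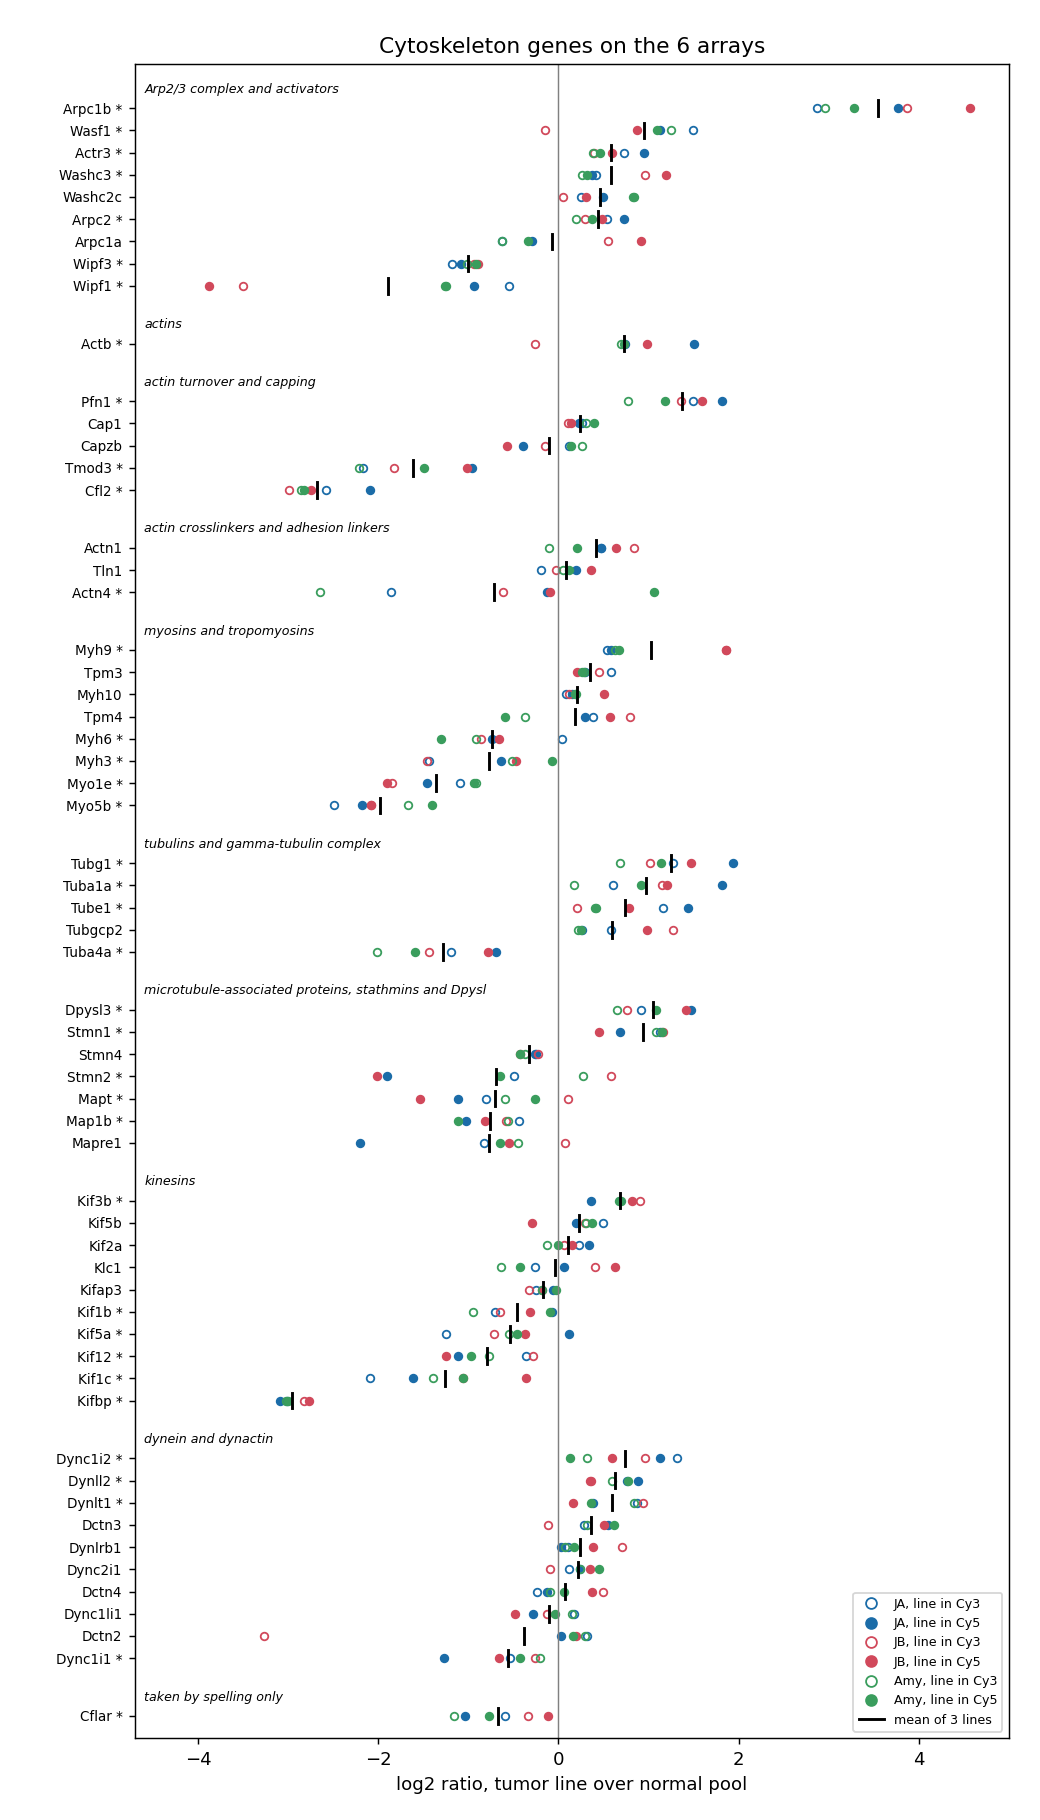
Log2 ratio of tumor line to normal pool for the 59 cytoskeleton genes on the 6 arrays, by class. Open points have the line in Cy3, filled points in Cy5, vertical bars are means of the 3 lines, and stars mark genes that passed the test. Arpc1b stands alone at the right between 2.87 and 4.57, and the points of Kifbp, the lowest gene, lie from -3.10 to -2.77.

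**Figure D2:**
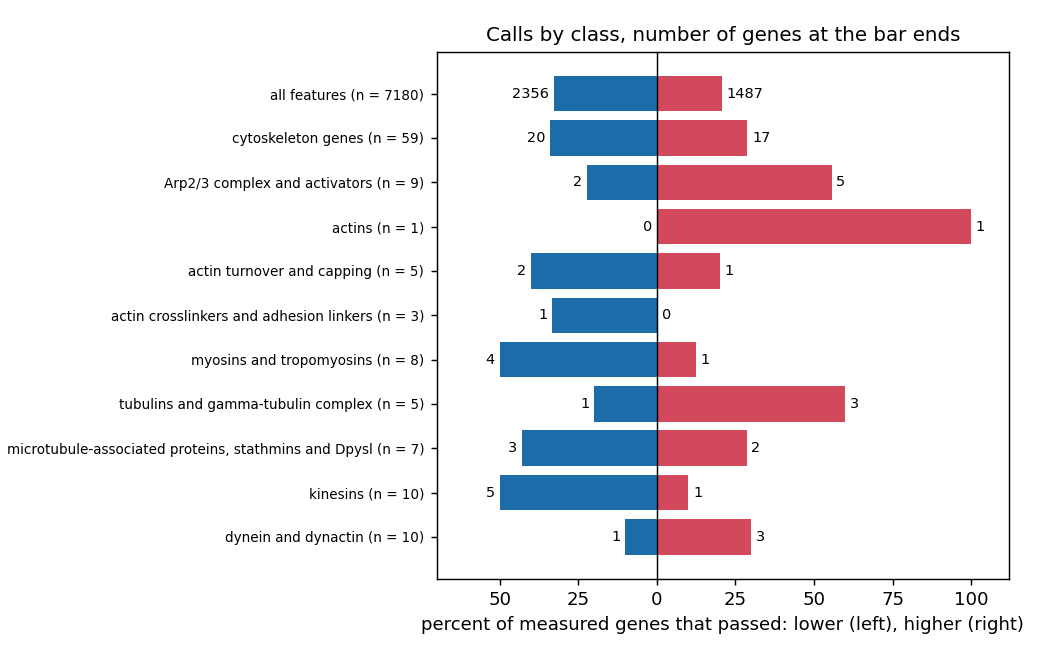
Percent of measured genes that passed the test, lower to the left and higher to the right, for all features, the 59 cytoskeleton genes and their 9 classes, with the number of genes at the end of each bar. Tubulins and the Arp2/3 group extend to the right with 3 of 5 and 5 of 9 genes higher, kinesins and myosins to the left with 5 of 10 and 4 of 8 lower.

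The promoters of the highest and the lowest gene and of Pfn1 are shown for reference, from RefSeq (GRCr8), 5′ to 3′, from 250 bases before to 50 after the start of the gene. Capitals mark GGGCGG (the GC box), CCAAT and TATAAA on either strand. The windows are chr12:14609439-14609738 for Arpc1b, chr20:31075143-31075442 for Kifbp and chr10:55866538-55866837 for Pfn1, all on the minus strand.
Arpc1b: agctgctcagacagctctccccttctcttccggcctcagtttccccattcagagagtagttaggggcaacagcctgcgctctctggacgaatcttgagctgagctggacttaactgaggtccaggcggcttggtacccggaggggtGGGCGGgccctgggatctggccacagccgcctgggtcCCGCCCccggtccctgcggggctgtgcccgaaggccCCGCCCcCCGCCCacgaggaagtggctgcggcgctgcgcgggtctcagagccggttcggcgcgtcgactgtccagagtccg
Kifbp: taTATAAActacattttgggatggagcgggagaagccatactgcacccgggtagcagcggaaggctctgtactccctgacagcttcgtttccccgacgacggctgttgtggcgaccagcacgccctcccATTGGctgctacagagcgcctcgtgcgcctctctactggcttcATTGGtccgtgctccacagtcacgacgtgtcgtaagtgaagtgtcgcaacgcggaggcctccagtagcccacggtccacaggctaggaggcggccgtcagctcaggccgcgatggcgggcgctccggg
Pfn1: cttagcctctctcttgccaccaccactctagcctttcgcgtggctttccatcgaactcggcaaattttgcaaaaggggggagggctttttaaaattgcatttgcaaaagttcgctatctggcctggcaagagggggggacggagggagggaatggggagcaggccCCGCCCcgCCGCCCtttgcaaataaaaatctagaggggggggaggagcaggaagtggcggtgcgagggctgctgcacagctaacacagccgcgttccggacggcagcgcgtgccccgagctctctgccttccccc
Arpc1b held 4 GC boxes and Pfn1 held 2, while Kifbp held none but 2 CCAAT and 1 TATAAA. The window of Cfl2 is not shown and held 6 GC boxes, some of them overlapping, more than Arpc1b. Cfl2 was called lower at -2.68, a mean of clones at -5.59 and 0.23. A relation of GC boxes to direction was not tested. Of the 59 genes, 47 matched the promoter table by gene identifier. GGGCGG was in 31 of these (66%), against 34.9% of all 27457 promoters, CCAAT in 44.7% against 37.7% and TATAAA in 14.9% against 14.3%. GC content was also higher in the 47 windows, with a median of 62.3% against 52.3%. All promoters here means every gene of the promoter table, named on the array or not. The same values over only the genes named on the array are not given. The CArG box, the element bound by serum response factor, was in 1 window, that of Myo1e (2.13% against 1.64% of all). A match is only a run of letters in this window.

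Of 9 measured subunits and activators of the Arp2/3 complex 5 were higher and 2 lower (55.6% and 22.2%, against 20.7% and 32.8% of all features), with a median of 0.46. Of the 5 higher calls, 4 were lost without line JA, and Arpc1b kept its call there. Arpc1b, the subunit that together with Arpc1a forms a pair of alternative p41 subunits of the complex, was the highest of all 59 genes. Its ratios were 2.87 and 3.77 in JA, 3.87 and 4.57 in JB and 2.96 and 3.28 in Amy. Every array lay far above 0 and JB was the highest line with either dye. The mean was 3.55 ± 0.59 (SD, n = 3 lines), or 11.7-fold (adjusted p = 4.80e-04), from a single clone whose 2 spots differed by at most 0.16 on any array. It did not pass when variances were left unmoderated (adjusted p = 0.0535, range over 23 alternatives 1.08e-05 to 0.0535). The value averaged 3.23 with the lines in Cy3 and 3.87 in Cy5. The nearest other cytoskeleton genes over the 6 arrays were Pfn1, Tubg1 and Dpysl3, at root mean square distances of 2.24, 2.36 and 2.55, so none had a similar level.

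Arpc1a, the alternative subunit, did not follow Arpc1b. Its ratios were -0.63 and -0.30 in JA, 0.55 and 0.91 in JB and -0.62 and -0.34 in Amy. The lines fell on opposite sides of the pool, JB above it and the other lines below, and the groups of arrays did not overlap. Both clones showed this order, with line means of -0.49, 0.77 and -0.52 for the first and -0.43, 0.69 and -0.44 for the second (JA, JB, Amy). The mean of -0.07 ± 0.70 did not pass (adjusted p = 0.843), and it turned positive with centred arrays (0.04). Without JB it was -0.47 and passed narrowly (adjusted p = 0.0452, range over 23 alternatives 0.0452 to 0.980).

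The other members of the group moved less. Actr3, the actin-related protein Arp3 of the complex, stood at 0.59 ± 0.22 (adjusted p = 0.0180) and Arpc2, a core subunit, at 0.44 ± 0.18 (adjusted p = 0.0374), both positive on all 6 arrays. Wasf1, a WAVE protein that activates the complex, stood at 0.95 ± 0.51 (adjusted p = 0.0168), and Washc3, of the WASH complex on endosomes, at 0.58 ± 0.43 (adjusted p = 0.0487). These 4 calls were fragile: leaving out a line or an array raised the adjusted p to at most 0.0948 for Actr3 (without JA), 0.170 for Arpc2 (without JA), 0.105 for Wasf1 (without JA) and 0.125 for Washc3 (without JA). The calls of Actr3 and Wasf1 were lost without Amy as well (0.0518 and 0.0917). Wasf1 was also lost without the JB Cy5 array (0.0943), where the remaining JB value was -0.15. That is the exact value shared by 166 spots of the JB Cy3 array. Arpc2 and Washc3 also lost the call without JB (0.0655 and 0.117) or Amy (0.0782 and 0.0766), and with 4 and 5 of the 6 single arrays left out. Over the alternatives the adjusted p lay between 0.00287 and 0.104 for Actr3, 0.00933 and 0.170 for Arpc2, 0.00149 and 0.154 for Wasf1, and 0.0118 and 0.217 for Washc3. Washc2c, a further WASH subunit, stood at 0.46 ± 0.34 and passed only in some alternatives, among them the fit with the dye orientation as a block (adjusted p = 0.0337) and the fit without JB (0.0328, range 0.0205 to 0.235).

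The 2 lower members of the group were proteins that bind WASP. Wipf3 stood at -1.003 ± 0.112 (adjusted p = 0.00237), with all 6 arrays between -1.18 and -0.89. Wipf1 had ratios of -0.55 and -0.94 in JA, -3.51 and -3.88 in JB and -1.24 and -1.26 in Amy. All arrays were negative, but JB lay more than 2 log2 units below the others. The mean was -1.90 ± 1.58 (adjusted p = 0.0411). Its call was lost without JA (0.0676), without Amy (0.0939), without the JA Cy5 array (0.0508) and with centred arrays (0.0534), with a range over 23 alternatives of 0.0060 to 0.2502.

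Beta-actin (Actb), the main cytoplasmic actin, was moderately higher but uneven. Its ratios were 0.738 and 1.502 in JA, -0.26 and 0.98 in JB and 0.69 and 0.73 in Amy, giving 0.73 ± 0.38 (adjusted p = 0.0200). One array of JB was negative and the others were positive. Of its 5 clones, 2 stood at -1.21 and -2.24 on that array, and the remaining 3 at 0.90, 0.90 and 0.35. In both of these clones the paired spots differed by over 1 on some array (up to 2.601 and 1.231). The clone means ranged from 0.11 to 1.18, all positive. The call was lost without JA (0.0958), without Amy (0.0852) and without the JB Cy5 array (0.179). Across 23 alternatives the adjusted p ran from 0.00305 to 0.210. Over the 6 arrays Actb was nearest to Tube1, Actr3 and Dynll2, at distances of 0.32, 0.42 and 0.44.

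Genes of actin turnover and capping split in direction. Profilin 1 (Pfn1), which delivers actin monomers to growing filaments, had ratios of 1.49 and 1.81 in JA, 1.36 and 1.59 in JB and 0.77 and 1.18 in Amy. All 6 arrays were positive, and Amy was lowest. The mean was 1.37 ± 0.35, or 2.58-fold (adjusted p = 0.00264), and its 3 clones agreed at 1.27, 1.58 and 1.25. Tropomodulin 3 (Tmod3), which caps pointed ends, stood at -1.61 ± 0.22 (adjusted p = 9.35e-04), averaging -2.07 with the lines in Cy3 and -1.16 in Cy5. The capping protein subunit Capzb at -0.10 ± 0.28 and the monomer-binding Cap1 at 0.24 ± 0.11 did not pass.

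Cofilin 2 (Cfl2), the muscle-type cofilin that severs filaments, stood at -2.68 ± 0.30 (adjusted p = 3.10e-04), but its 2 clones gave different answers. The first had ratios of -5.47 and -4.93 in JA, -6.19 and -5.86 in JB and -5.45 and -5.67 in Amy. The second had 0.32 and 0.75 in JA, 0.21 and 0.37 in JB and -0.27 and 0.03 in Amy. The clone means of -5.59 ± 0.41 and 0.23 ± 0.33 differ by 5.83, the widest range of any cytoskeleton gene, while spots within a clone differed by at most 0.43 and 0.47. The gene's mean therefore describes neither clone, and which of them represents Cfl2 was not tested.

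Of the crosslinking and adhesion genes, none gave a stable change. Actn4, an alpha-actinin that bundles filaments, passed as lower at -0.71 ± 0.33 (adjusted p = 0.0168), with ratios of -1.86 and -0.13 in JA, -0.61 and -0.09 in JB and -2.65 and 1.07 in Amy. The lower values came from 1 of 3 clones, the second, whose 2 spots differed by up to 10.8 on 1 array and whose mean was -2.15. The other clones stood at 0.05 and -0.04. The mean was -1.71 with the lines in Cy3 and 0.28 in Cy5. With dye orientation as a block the adjusted p was 0.293, and with clones of disagreeing spots left out the mean was 0.0043 (adjusted p = 0.981). Leaving out 1 library also lost the call: without the first array of JA (0.107), JB (0.0554) or Amy (0.853), and without line JA (0.0985) or Amy (0.0852), with a range over 22 alternatives of 0.00527 to 0.981. Actn1 stood at 0.42 ± 0.35 (adjusted p = 0.0856), which became 0.0487 without the Amy Cy3 array and 0.0409 with centred arrays, over a range of 0.0185 to 0.543. Talin 1 (Tln1), which links integrins to actin, stood at 0.08 ± 0.08, with clones from -0.31 to 0.65.

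Of 8 myosin and tropomyosin genes 4 were lower and 1 higher (50% and 12.5%, against 32.8% and 20.7% of all features), with a median of -0.28. The vesicle motor Myo5b stood at -1.98 ± 0.41 (adjusted p = 0.00121) and the long-tailed class I myosin Myo1e at -1.36 ± 0.48 (adjusted p = 0.00469), both negative on all 6 arrays. The sarcomeric heavy chains Myh3 and Myh6 stood at -0.77 ± 0.41 and -0.74 ± 0.38 (adjusted p = 0.0202 and 0.0191). Myh3 did not pass without JA (0.120), and Myh6 neither without Amy (0.0836) nor without the JA Cy5 array (0.0858), with ranges of 0.0090 to 0.152 and 0.00822 to 0.145 over the alternatives. Beside these, 6 of 7 measured markers of smooth and skeletal muscle were lower (85.7%, against 32.8% of all features). The list median was -1.82, with Myl11 at -5.11 and desmin at -4.87. Of 8 measured fibroblast markers 7 were lower (87.5%). The part of such cells in the result was not tested.

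The non-muscle heavy chain Myh9, which drives contraction of stress fibers, was the exception. Its ratios were 0.53 and 0.58 in JA, 1.85 and 1.86 in JB and 0.63 and 0.68 in Amy. All arrays were positive, and JB lay clear of the other lines, whose 4 arrays ran from 0.53 to 0.68. The mean of 1.02 ± 0.725 (adjusted p = 0.0310) lost its call without JA (0.0726) or Amy (0.0707), with a range over 23 alternatives of 0.00533 to 0.210. The paralog Myh10 stood at 0.20 ± 0.09 and did not pass. Of the tropomyosins, which coat actin filaments, Tpm3 stood at 0.35 ± 0.08 (adjusted p = 0.0518, and 0.0321 with the dye orientation as a block), and its 3 clones at -0.30, 0.36 and 0.98. Tpm4 stood at 0.18 ± 0.60, positive in JA and JB and negative in Amy on both arrays.

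Of 5 tubulin and gamma-tubulin complex genes 3 were higher and 1 lower (60% and 20%, against 20.7% and 32.8% of all features), with a median of 0.73, and all 5 kept 1 sign on the 6 arrays. Gamma-tubulin (Tubg1), which nucleates microtubules at the centrosome, had ratios of 1.28 and 1.93 in JA, 1.02 and 1.47 in JB and 0.68 and 1.14 in Amy, a mean of 1.25 ± 0.35 or 2.38-fold (adjusted p = 0.00336). Every array was positive. The alpha-tubulin Tuba1a stood at 0.98 ± 0.37 (adjusted p = 0.00786), lost only without JA (0.0640) among the leave-outs. Its clones stood at 1.19, 0.61 and 1.12, the middle one with spots up to 3.77 apart. The centriolar epsilon-tubulin Tube1 stood at 0.73 ± 0.49 (adjusted p = 0.0333) and lost its call without JA (0.0985), without Amy (0.0615) and without the JB Cy5 array (0.0807). Over the alternatives the adjusted p lay between 0.00227 and 0.106 for Tuba1a and between 0.00966 and 0.196 for Tube1.

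A second alpha-tubulin moved the other way. Tuba4a had ratios of -1.19 and -0.70 in JA, -1.44 and -0.78 in JB and -2.02 and -1.59 in Amy, all negative and lowest in Amy. The mean was -1.29 ± 0.46 (adjusted p = 0.00504). Tubgcp2, a gamma-tubulin complex component, stood at 0.59 ± 0.47 (adjusted p = 0.0564). It passed with dye orientation as a block (0.0297) and without the JA Cy5 array (0.0440), within a range of 0.0175 to 0.935. Its clones stood at -0.03 and 1.22.

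Microtubule-associated genes divided by gene. Dpysl3, a collapsin response mediator that binds tubulin, stood at 1.05 ± 0.17 (adjusted p = 0.00250), with clones at 1.04 and 1.06. Stathmin 1 (Stmn1), which sequesters tubulin dimers and is known from dividing cells, stood at 0.94 ± 0.16 (adjusted p = 0.00329). Its ratios were 1.13 and 0.68 in JA, 1.16 and 0.45 in JB and 1.08 and 1.15 in Amy, all positive, with clones at 1.01 and 0.87. Of 7 measured mitosis genes 5 were higher and 2 lower (Ccnb2 at -1.81 and Aurkb at -0.55), with a median of 1.03. Their shares were 71.4% and 28.6%, against 20.7% and 32.8% of all features. The part of this list in the Stmn1 and Tubg1 values was not tested.

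The remaining genes of this class had negative means. Map1b stood at -0.76 ± 0.07 (adjusted p = 0.00467), averaging -0.53 with the lines in Cy3 and -0.99 in Cy5. Its clones stood at 0.14, -0.12, -1.58 and -1.47, so that the mean of the first clone alone had the other sign. The second clone was positive with every line in Cy3 and negative with every line in Cy5. Its spots lay up to 2.39 apart, and those of the third clone up to 3.58. Mapt (tau) stood at -0.70 ± 0.27 (adjusted p = 0.0129) and Stmn2 at -0.70 ± 0.51 (adjusted p = 0.0412). Spots lay up to 3.75 apart in the second Mapt clone and up to 1.58 in the single Stmn2 clone. Mapt and Stmn2 both lost the call with dye orientation as a block (0.125 and 0.111). Mapt also lost it without JA (0.0776) and without the JB Cy5 array (0.182), its highest value among the alternatives, whose lowest was 0.00585. Stmn2 averaged 0.12 with the lines in Cy3 and -1.52 in Cy5. It lost its call in 6 of the 9 leave-outs, JA (0.173) and JB (0.0629) among the lines, and the JA Cy3, JA Cy5, JB Cy5 and Amy Cy5 arrays (0.0707, 0.0541, 0.549 and 0.166), within a range of 0.00869 to 0.679. Stmn4 at -0.33 ± 0.07 did not pass (adjusted p = 0.0595), but did with the block (0.0331), and in all in 3 of 23 alternatives (range 0.0165 to 0.226). Mapre1, a plus-end tracking protein, stood at -0.77 ± 0.67 (adjusted p = 0.0578). Its single clone had spots up to 3.37 apart, and it passed without JB (0.0147), without the JA Cy5 array (0.0395) or the Amy Cy3 array (0.0483) and without the JB Cy3 array (0.0282), within a range of 0.0147 to 0.262.

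Of 10 kinesins and their partners 5 were lower and 1 was higher (50% and 10%, against 32.8% and 20.7% of all features), with a median of -0.32. The lowest of all 59 genes was Kifbp, a protein that binds kinesin motor domains and keeps them from microtubules. Its ratios were -3.01 and -3.10 in JA, -2.82 and -2.77 in JB and -3.03 and -3.00 in Amy. All 6 arrays lay between -3.10 and -2.77, with means of -2.95 in Cy3 and -2.96 in Cy5. The mean was -2.96 ± 0.14, or 7.76-fold lower (adjusted p = 1.21e-04), from 1 clone. The motors Kif1c and Kif12 stood at -1.26 ± 0.57 (adjusted p = 0.00871) and -0.79 ± 0.07 (adjusted p = 0.00412). Kif12 averaged -0.47 with the lines in Cy3 and -1.11 in Cy5, which its SD does not show. Kif3b, a subunit of the kinesin that builds cilia, stood at 0.69 ± 0.17 (adjusted p = 0.00860).

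Kif5a, a neuronal motor, and Kif1b passed at -0.54 ± 0.03 and -0.46 ± 0.07 (adjusted p = 0.0124 and 0.0209). Here the small SD of line means hides the dye: Kif5a averaged -0.84 in Cy3 and -0.24 in Cy5, and Kif1b -0.77 and -0.16. Kif5a lost its call with the block (0.0918), without JA (0.0728), Amy (0.0557) or the JA Cy3 array (0.226), in a range of 0.00914 to 0.286. Kif1b lost it without any of the 3 lines (0.0789, 0.0533 and 0.0939 for JA, JB and Amy) and without any array with the line in Cy3 (0.124, 0.0540 and 0.106), in a range of 0.00796 to 0.363. The ubiquitous heavy chain Kif5b, its light chain Klc1, the spindle motor Kif2a and the adaptor Kifap3 did not pass, with means from -0.17 to 0.23.

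Dynein is the motor toward the minus end, and dynactin its activator. Of 10 genes 3 were higher and 1 lower, a total of 40.0% against the 53.5% of all features, with a median of 0.23. The intermediate chain Dync1i2, which is broadly expressed, stood at 0.74 ± 0.50 (adjusted p = 0.0338) and its paralog Dync1i1, known from neurons, at -0.56 ± 0.31 (adjusted p = 0.0319). The light chains Dynll2 and Dynlt1 stood at 0.62 ± 0.24 and 0.59 ± 0.04 (adjusted p = 0.0163 and 0.00931). Dynlt1 averaged 0.88 with the lines in Cy3 and 0.30 in Cy5, which its SD does not show. None of the calls of this class was kept in every leave-out. The adjusted p reached 0.150 for Dync1i2 (without JA, and 0.0536 without JB), 0.135 for Dync1i1 (without JA, and between 0.0565 and 0.0751 without Amy, the first JA array or the second JB or Amy array). It reached 0.0982 for Dynll2 (without JA, and 0.0818 without Amy) and 0.0630 for Dynlt1 (without JA, and 0.0589 without the first JB array). Over the alternatives the ranges were 0.00778 to 0.198, 0.0201 to 0.157, 0.00202 to 0.106 and 0.00357 to 0.116. Dctn3 at 0.36 ± 0.14 passed with the block (0.0416) and without the JB Cy3 array (0.0345, range 0.0196 to 0.414). Dctn2 stood at -3.27 on that JB array, with spots at -3.47 and -3.06, and between 0.03 and 0.32 on the other 5. That array set its mean of -0.38 and the SD of 1.004. The remaining genes Dctn4, Dynlrb1, Dync1li1 and Dync2i1 did not pass, with means from -0.10 to 0.24.

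**Figure D3:**
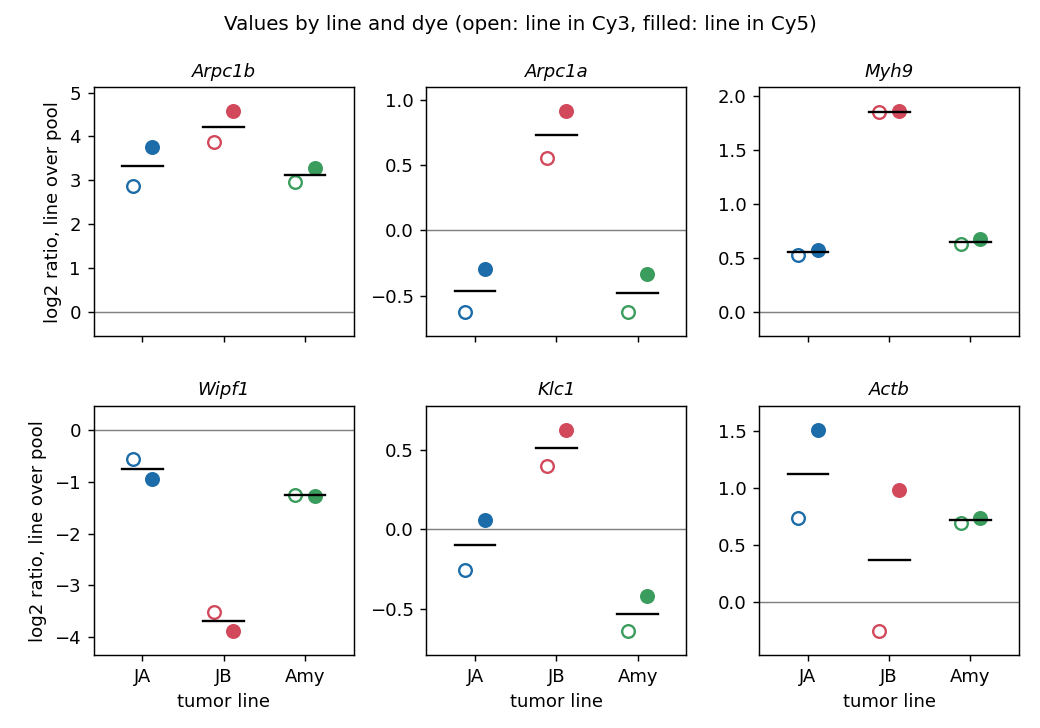
Log2 ratio by tumor line for 6 genes, open points with the line in Cy3 and filled points in Cy5, horizontal bars as line means. JB stands apart for Arpc1a, Myh9 and Wipf1 with either dye, while Arpc1b is at 2.87 or above on every array and the 2 JB values of Actb lie on opposite sides of 0.

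A single line has no biological replicate, so lines were compared by size alone. A gene set a line apart when that line differed from both others by at least 1 within each dye orientation. Among the 59 genes this held for 3 (5.08%), against 2.77% of all features, and in each the line was JB: Arpc1a and Myh9 higher, Wipf1 lower. Among all features JB was apart for 1.99%, JA for 0.362% and Amy for 0.501%. At a size of 0.5 there were 11 genes (18.6%, against 13.8% of all features), of which 7 set JB apart (11.9%, against 7.58%), with Arpc1b, Klc1, Tubgcp2 and Washc3 joining as higher in JB. Tube1 was then higher and Kif1c lower in JA (3.39%, against 3.12% of all features), and Tpm4 and Tuba4a lower in Amy (3.39%, against 3.93%).

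Ratios of at least 1 on both arrays of a line were reached by 6 genes above and 6 below in JA, against 7.42% and 13.6% of all features (10.2% of the 59 genes in each direction). In JB they were 5 and 6 (8.47% and 10.2%), against 5.93% and 11.4%, and in Amy 3 and 7 (5.08% and 11.9%), against 4.97% and 12%. Arpc1b was the single gene above in all 3 lines, and Cfl2, Kifbp and Myo5b were below in all 3. These shares lie near those of all features.

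**Figure D4:**
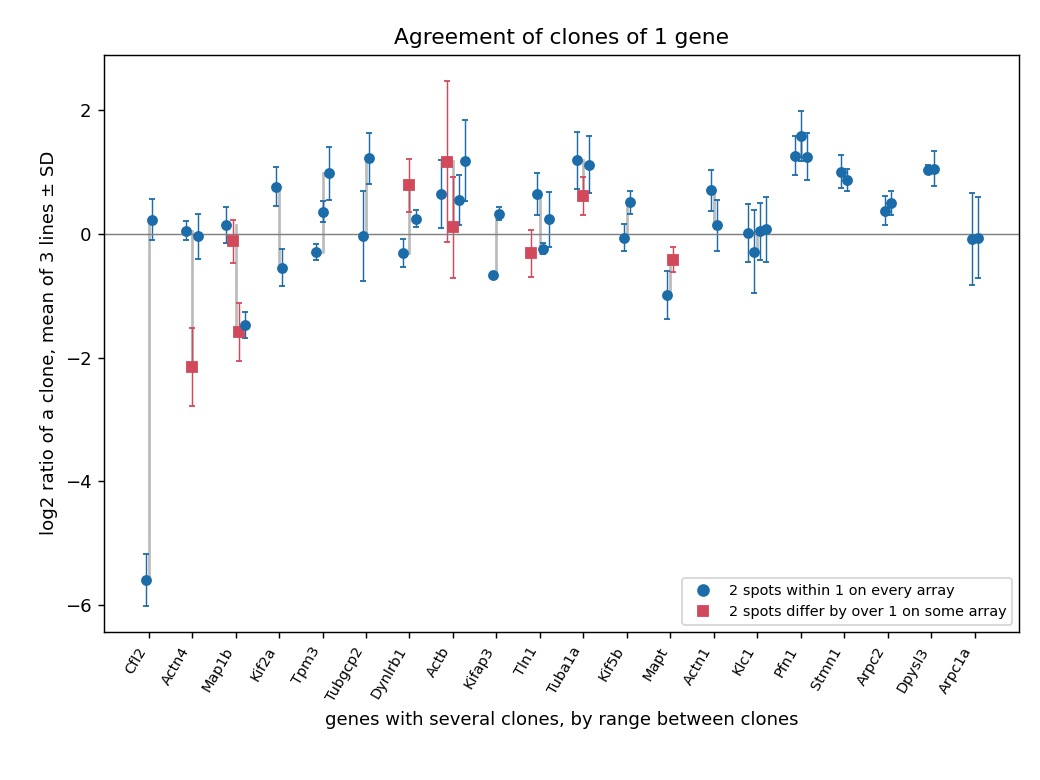
Mean log2 ratio over the 3 lines of each clone (bars: SD over lines) for the 20 genes with several clones, ordered by the range between clones. Squares mark clones whose 2 spots differed by over 1 on some array. Cfl2 stands out at the left with clones at -5.59 and 0.23, whereas both clones of Dpysl3, Arpc1a and Stmn1 and all 3 of Pfn1 lie close together.

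Clones of 1 gene often disagreed. Among the 20 genes with several clones, 11 had clones of opposite sign (55%) and 8 had clones at least 1 apart (40%), with a median range of 0.77. Over all 655 genes with several clones the shares were 35.7% and 29.5% and the median range was 0.53. A range can only widen as clones are added, and the number of clones per gene was not matched in this comparison. Of the 10 such genes that passed, 7 had clones of 1 sign, and Actn4, Cfl2 and Map1b did not. The matching share over all genes with several clones that passed is not given. In Kif2a the clones stood at 0.77 and -0.55, in Kifap3 at -0.66 and 0.32, and in Dynlrb1 between -0.30 and 0.78, each with a mean near 0 that did not pass. Klc1 was different: its 4 clones were close, from -0.29 to 0.07, and each placed JB highest and Amy lowest. The SD over lines covers none of this spread between clones.

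Exact values repeated within arrays gave information on scale and signal. On each array 86 to 166 spots shared 1 exact value, and the next most frequent values lay 1 or 0.58 above or below it, or 0.32 below. Those steps are the base-2 logarithms of the ratios 2 to 1, 3 to 2 and 5 to 4, so the deposited logarithm is to base 2. Values that stand at a ratio of whole numbers up to 10 from the shared value (tolerance 1e-06) made up 2.84% to 3.86% of the spots of an array. Among cytoskeleton clones 30 of 93 (32.3%) had such a value on some array, against 20.3% of all clones. No spot intensities were used, so whether these spots were dim was not tested. The second Map1b clone had it in 9 of 12 spot values and the second Actb clone in 6 of 12. Neither Arpc1b, Kifbp, Myh9, Wipf1, Tubg1 nor the first clone of Cfl2 had any. With all such clones left out, 44 of the 59 genes were still measured. Of these 18 were higher and 12 lower, with no count over all features beside them. Actb then stood at 0.79 and passed (adjusted p = 0.00312), as did Tpm3 at 0.67 (0.00641), while Actn4 at -0.04 did not (0.852).

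Cytoskeleton genes outside the naming rule were described from separate lists. Of 30 measured regulators and partners of actin 9 were higher and 8 lower, with a median of 0.11. The 56.7% that passed lie near the 53.5% of all features. The 8 largest were chosen after their values were seen. Moesin (Msn), which ties actin to the membrane, stood at 2.48 ± 0.31, the monomer-binding thymosin Tmsb10 at 2.38 ± 0.13, the kinase Pak1 at 1.996 ± 0.273 and Enah, which protects growing ends, at 1.32 ± 0.11. The severing protein gelsolin (Gsn) stood at -4.35 ± 0.52, Pdlim5 at -2.23 ± 0.40, tropomyosin 1 (Tpm1) at -1.82 ± 1.15 and adducin 3 (Add3) at -1.62 ± 0.37. All but Tpm1 kept their call in every leave-out, and Tpm1 lost it in 2 of 9 (adjusted p up to 0.124). Of 9 measured microtubule genes 3 were higher and 1 lower (Tacc1, -2.02 ± 0.65), with a median of 0.32. These shares of 33.3% and 11.1% stand against 20.7% and 32.8% of all features.

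The labelled tissue could be checked only in part. Of 14 squamous epithelial markers 2 were measured, Lgals7 and Cstb, both lower than in the pool at -5.82 and -0.68, and ratios give no absolute level of a marker. The 12 nerve markers had 7 measured, 2 higher and 1 lower (28.6% and 14.3%, against 20.7% and 32.8% of all features).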

How the data were processed

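The 6 arrays carry 16128 spots, printed as 8064 adjacent pairs of 1 clone each. The deposited values are log2 ratios, 1 per spot and array, with no missing value. How the authors scanned, corrected and normalized the arrays is not given in the sources used here. Array medians lay between -0.05 and -0.15 and duplicate spots correlated at 0.907 to 0.949. No sign was changed, since the ratios of both dye orientations correlated positively (r of 0.815 to 0.888 within a line).

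Spots of 1 gene symbol of the platform annotation were averaged on each array, and clones without a single symbol kept as features, 7180 in all. The 2 arrays of a line were averaged and the mean of the 3 lines tested against 0 with limma 3.58.1 in R 4.3.3 (lmFit, eBayes, two-sided, Benjamini-Hochberg over all features). No low-value filter was applied. The procedure was tested on simulated data.

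The difference between the 2 arrays of a line correlated between lines at 0.526 to 0.613, so dye orientation, given by the labels, pairs the arrays. A fit with it as a block and line as a random block is given beside results whose call it changed.

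Members, classes and lists were chosen with earlier results of these data known. Genes named first were Arpc1b and Actb, those that passed with a mean of at least 1 in size and 1 sign on all arrays, the extremes of each class, those whose clones differed in sign or by at least 1, and those that set a line apart. The remaining members were named afterwards, to account for all. Cflar was taken out of the cofilin class after the symbols were seen. Both alternatives for clones, which left out those with disagreeing spots or at whole-number ratios, were chosen after seeing the data. Plots used matplotlib 3.10.9 (Python 3.11.15).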

Additional observations from a re-analysis of the deposited data

Results flagged for a closer look

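Of the genes named by rule, 3 had a line with both arrays above the pool and another with both below it, and the difference between the lines was not tested. For Arpc1a, JB lay above and JA and Amy below, by 1.20 and 1.21. For Kif2a, JA and JB lay above and Amy below, by 0.35 and 0.17, and the Amy value on its Cy5 array was close to 0. Neither Kif2a clone alone showed this. Line means (JA, JB, Amy) were 0.81, 1.05 and 0.44 for the first and -0.24, -0.84 and -0.56 for the second. The opposite sides arose from averaging clones of opposite sign. For Klc1, JB lay above and Amy below, by 1.05. With 2 arrays per line, no single array could be tested as standing apart from its group.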

How the results depend on the processing

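The 17 higher and 20 lower cytoskeleton genes became 5 and 9 when the pool was given a spread of its own, 1 and 8 without moderation of the variances, and 8 and 10 at an adjusted p under 0.01. Leaving out lines or arrays gave 6 to 18 higher and 11 to 20 lower. For the calls under the alternatives of this section, counts over all features are not given. The counts here therefore do not set the 59 genes apart from other features. With clones at whole-number ratios left out the lower count was 12 of the 44 genes still measured. The 14 genes kept with a spread for the pool were Arpc1b, Dpysl3, Pfn1, Stmn1 and Tubg1 above and Cfl2, Kif12, Kifbp, Map1b, Myo1e, Myo5b, Tmod3, Tuba4a and Wipf3 below. The fit with dye orientation as a block gave 21 and 17. It lost 4 calls and gained 5, each given with its gene, and changed no other call among the 59 genes. Actn4 turned positive with the lines in Cy5 (0.28), with the first clone of each gene (0.049) and with disagreeing clones left out (0.0043), and Map1b with the first clone (0.14). Genes that set a line apart numbered 11 at a size of 0.5. For the causes of these changes nothing was tested beyond the construction of each alternative. Of the 31 genes named by rule, 4 kept direction and call in all their alternatives: Cfl2, Kifbp, Tmod3 and Wipf3. For Cfl2 no alternative used its second clone alone, which stood at 0.23. Tmod3 was absent from both alternatives that left out clones, since its single clone was among those left out.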

Other observations

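Intermediate filaments, the other filament system of the cell, had 9 measured genes on the list used here, of which 2 were higher and 2 lower. That is 22.2% in each direction, against 20.7% higher and 32.8% lower of all features. The nuclear lamins Lmnb1 and Lmnb2 stood at 1.59 ± 0.60 and 0.93 ± 0.28 (adjusted p = 0.00499 and 0.00556), while Lmna stood at -0.38 ± 0.18 and did not pass (adjusted p = 0.0569). Desmin (Des), the filament of muscle cells, stood at -4.87 ± 0.13 (adjusted p = 4.34e-05) and keratin 7 (Krt7) at -0.76 ± 0.38 (adjusted p = 0.0177), a call lost in 3 of 9 leave-outs, where the adjusted p reached 0.111.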
